A study of Mus musculus with 32 samples.

Results

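The regions described here are 1438 stretches of open chromatin in mouse blood stem and progenitor cells that lay more than 50 kb from every protein-coding gene model of the mouse genome build GRCm38. Open chromatin was measured by ATAC-seq, in which a transposase cuts accessible DNA and the cut sites pile up into peaks. Each of 16 peak lists was shortened to its 19100 strongest autosomal peaks, overlapping peaks were merged over the lists, and a merged region was kept where 3 or more lists held a peak in it. This left 23554 regions, of which the 1438 distal ones made up 6.11%, and before the rule of 3 lists there were 2419 distal regions. No measured difference between groups entered the choice. The distal region closest to a gene model lay 50.054 kb away and the farthest region left out 49.993 kb away, with 125 distal regions between 50 and 55 kb and 127 other regions between 45 and 50 kb. Of the distal regions, 150 had a peak in exactly 3 lists, and 209 further ones were left out with a peak in exactly 2.

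The cells were haematopoietic stem and progenitor cells (HSPCs), sorted as Lin- cKit+ Sca1+ cells from the bone marrow of transplanted mice. Lethally irradiated C57BL/6J recipients (CD45.2) received 800000 wild-type marrow cells (CD45.1+/2+), and the sorted HSPCs carried this wild-type donor marker in every group. AF9-experienced mice also received 200000 marrow cells homozygous for the inducible human MLL-AF9 fusion and for rtTA (CD45.1), whereas naive mice received the same number of hMLL-AF9-null cells with rtTA alone. MLL-AF9 is a leukaemia driver, and rtTA is the doxycycline-dependent activator that switches it on. Doxycycline began 6 to 8 weeks after transplantation, was given for 5 weeks and was then withdrawn for 4 weeks to model remission; the series text does not set the naive mice apart in this step. Mice then received LPS, a bacterial lipopolysaccharide sensed by Toll-like receptors, or PBS, and were killed 24 hours later. There were 5 AF9-experienced LPS, 4 AF9-experienced PBS, 3 naive LPS and 4 naive PBS biological replicates, each with 1 peak list; age and sex are not given in the sources used here. The question is how the open chromatin of wild-type bystander HSPCs responds to LPS, and whether earlier contact with MLL-AF9 cells alters that response.

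Open regions far from any protein-coding gene are mostly enhancers, insulators and promoters of noncoding RNAs. Enhancers bind transcription factors and loop to promoters that can lie far away on the same chromosome, and they are in general more specific to cell type and state than promoters. In blood stem and progenitor cells, factors of the RUNX, ETS, GATA, C/EBP and AP-1 families bind such elements, and the genes of these factors are themselves flanked by long intergenic stretches. A distal region is named below by a neighbouring protein-coding gene model, the nearest unless another is given, and the distance to it, which says where it lies and not which gene it acts on.

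The sequences that the deposited peaks themselves cover were not analysed here, but part of the distal regions hold the start of a noncoding transcript whose promoter sequence could be read. RefSeq promoter windows (GRCm38.p6), from 250 bases before to 50 bases after a start, overlapped 96 of the 1438 distal regions, with 117 windows of 100 genes. Of these windows, 6 lay in regions that ranked higher after LPS and 3 in regions that ranked lower. Shown are 3 windows from regions higher after LPS (Gm30728, 4930471E19Rik and 1700011C11Rik), 2 from regions lower after LPS (1110002J07Rik and Gm30779) and that of the distal region with the highest mean rank (D130051D11Rik). All 6 are listed as lncRNA starts, and they were picked after their values were seen. Each is written in the direction of transcription, and capitals mark matches on either strand to the short core motifs of AP-1, RUNX, ETS, GATA and C/EBP factors, whose letters are given after the sequences.
Gm30728: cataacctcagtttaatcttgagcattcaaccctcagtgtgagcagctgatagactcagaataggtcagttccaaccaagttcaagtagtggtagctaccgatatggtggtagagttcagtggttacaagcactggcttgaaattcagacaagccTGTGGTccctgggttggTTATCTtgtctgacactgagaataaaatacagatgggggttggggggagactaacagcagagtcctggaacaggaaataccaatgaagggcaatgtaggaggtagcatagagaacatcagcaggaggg
4930471E19Rik: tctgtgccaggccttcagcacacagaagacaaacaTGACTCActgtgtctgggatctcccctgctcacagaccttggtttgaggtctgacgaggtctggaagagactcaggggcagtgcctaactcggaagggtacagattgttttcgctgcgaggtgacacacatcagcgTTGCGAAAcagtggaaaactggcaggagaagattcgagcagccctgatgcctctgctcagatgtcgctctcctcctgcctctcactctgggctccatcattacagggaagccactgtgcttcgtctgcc
1700011C11Rik: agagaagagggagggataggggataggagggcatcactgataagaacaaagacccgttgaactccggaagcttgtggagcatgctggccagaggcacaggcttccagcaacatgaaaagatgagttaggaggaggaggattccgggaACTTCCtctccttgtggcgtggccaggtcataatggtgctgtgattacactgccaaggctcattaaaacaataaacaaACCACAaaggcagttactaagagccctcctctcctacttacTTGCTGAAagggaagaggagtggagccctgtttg
1110002J07Rik: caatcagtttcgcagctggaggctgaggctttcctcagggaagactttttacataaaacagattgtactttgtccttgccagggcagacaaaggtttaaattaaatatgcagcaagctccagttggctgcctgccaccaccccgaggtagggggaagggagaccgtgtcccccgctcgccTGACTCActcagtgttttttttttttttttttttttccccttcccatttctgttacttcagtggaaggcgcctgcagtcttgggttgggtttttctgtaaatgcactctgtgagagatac
Gm30779: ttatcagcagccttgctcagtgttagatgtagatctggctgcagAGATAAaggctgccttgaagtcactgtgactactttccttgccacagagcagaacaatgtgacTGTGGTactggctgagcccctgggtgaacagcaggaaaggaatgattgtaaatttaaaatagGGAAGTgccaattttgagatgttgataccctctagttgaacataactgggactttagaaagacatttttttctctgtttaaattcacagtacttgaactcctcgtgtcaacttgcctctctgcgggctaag
D130051D11Rik: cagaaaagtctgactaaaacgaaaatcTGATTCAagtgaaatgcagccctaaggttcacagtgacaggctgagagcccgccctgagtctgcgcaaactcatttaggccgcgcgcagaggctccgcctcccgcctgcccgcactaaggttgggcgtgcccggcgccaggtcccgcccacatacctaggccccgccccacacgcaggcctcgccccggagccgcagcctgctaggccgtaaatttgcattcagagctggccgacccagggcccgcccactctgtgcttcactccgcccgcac

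The Gm30728 window (chr2:45434146-45434445, minus strand) held 1 RUNX and 1 GATA match and lies in the region 317 kb upstream of Zeb2. The 4930471E19Rik window (chr10:120636058-120636357, minus strand) held 1 AP-1 and 1 C/EBP match in the region 145 kb downstream of Msrb3. The 1700011C11Rik window (chr7:71960925-71961224, plus strand) held 1 ETS, 1 RUNX and 1 C/EBP match in the region 117 kb downstream of Mctp2. Among the windows from regions lower after LPS, that of 1110002J07Rik (chr10:66920335-66920634, minus strand, 87.4 kb from Reep3) held 1 AP-1 match, and that of Gm30779 (chr6:26766846-26767145, minus strand, 508 kb downstream of Grm8) held 1 GATA, 1 RUNX and 1 ETS match. The D130051D11Rik window (chr15:85634346-85634645, plus strand) held a single AP-1 match. It starts at base 28 of the window and lies outside the distal region, which begins further along, at chr15:85634384. Reep3's region differed by -30.62 percentile points after LPS in AF9-experienced mice (limma, adjusted p = 0.0183) and Grm8's by -31.12 (adjusted p = 0.0179), and neither passed in naive mice (-25.63, adjusted p = 0.113, and -28.24, adjusted p = 0.0783). The region beside Mctp2 passed in naive mice (42.31, adjusted p = 0.00452) and not in AF9-experienced mice (17.39, adjusted p = 0.166), while those beside Zeb2 and Msrb3 passed in both.

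The RUNX core TGTGGT was found in 29.1% of the 117 distal windows (34 windows), against 16.7% of all 31396 promoter windows of the table. The C/EBP core TTGCNNAA was in 17.9% of distal windows (21) and in 10.9% of all windows. For AP-1, TGANTCA was in 13.7% of distal windows (16) and 7.84% of all. The GATA core AGATAA was in 14.5% (17) against 11.2%, and the ETS core GGAAGT was in 29.9% (35) against 23.9%. For CRE, the cAMP-response core TGACGT, the share was lower in distal windows, at 5.98% (7) against 7.57%. The interferon-response and kappaB motifs were each in 4.27% of distal windows (5), against 3.46% and 1.66% of all. In the search N stood for any base, both strands were read and matches of different motifs could overlap. Median GC content was 52% in distal windows and 53% in all windows. Of the 6 windows in regions higher after LPS, 4 held RUNX, 3 C/EBP, 2 GATA, 1 ETS, 1 AP-1 and 1 kappaB letters. Of the 3 windows in regions lower after LPS, 2 held ETS, 1 RUNX, 1 GATA, 1 AP-1 and 0 C/EBP letters, numbers too small to compare. These are matches of letters and not bound sites, and windows of 1 gene can overlap. The distal windows were picked for overlap with an open region. All windows of the table, protein-coding genes included, were taken with or without one. The shares therefore do not show a motif trait of distal regions.

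Ranked by -log10 p, distal regions stood lower than the other classes, and a smaller share of them was in all 16 shortened lists. Each region was scored in each library by the percentile, from 0 to 100, that its best peak reached when the 19100 strongest peaks were sorted by the authors' -log10 p, and a region without such a peak scored 0. A peak in all 16 lists was found for 307 distal regions (21.3%), compared with 25.01% of 4527 intergenic regions within 50 kb of a gene, 29.1% of 7590 regions inside gene models and 73.0% of 9999 regions within 1 kb of a gene end. Conversely, 25.03% of distal regions had a peak in only 3 to 5 lists, compared with 21.5%, 20.03% and 5.15% of those 3 classes. The median mean rank was 14.7 for distal regions and 66.1 for gene ends, and the median merged width was 790 bp against 1164 bp.

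**Figure D1:**
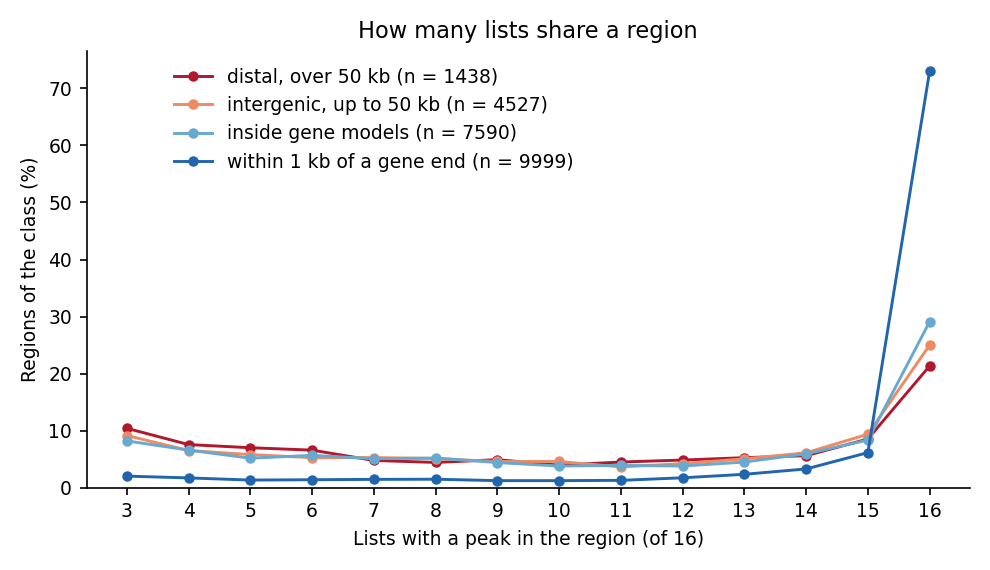
The share of regions in each class (vertical axis, %) is plotted against the number of the 16 shortened lists that hold a peak in the region (horizontal axis). Distal regions (n = 1438) have the smallest share in all 16 lists, 21.3%, and gene ends (n = 9999) the largest, 73.0%.

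The same order held within every library. The median rank of distal peaks in a library was 29.6 to 42.4, against 68.3 to 70.8 for gene-end peaks, 35.1 to 44.9 for intragenic peaks and 32.5 to 42.8 for other intergenic peaks. Distal peaks ranked lower in 16 of 16 libraries in each of these comparisons, by a median of -38.54, -4.55 and -1.84 percentile points (exact two-sided sign-flip permutation over 16 libraries, p = 3.05e-05 each, the smallest possible, adjusted p = 3.92e-05 over 9 comparisons). Ranked by the authors' fold enrichment instead, the gap to gene ends kept its sign, but distal peaks stood above intragenic peaks by 0.836 points (lower in 6 of 16 libraries; exact permutation p = 0.0365) and above other intergenic peaks by 1.80 points (lower in 2 of 16; exact permutation p = 0.000183). In fold enrichment itself, distal peaks exceeded intragenic and other intergenic peaks in 16 of 16 libraries, by a median of 1.07 and 1.004, and lay below gene-end peaks in 12 of 16, by -1.21 (exact permutation p = 0.0115, adjusted p = 0.0129). They were narrower than gene-end peaks by a median of 307 bp and narrower than intragenic peaks by 35.5 bp, both in 16 of 16 libraries (exact permutation p = 3.05e-05), while the difference from other intergenic peaks was 3.75 bp and did not pass the test (exact permutation p = 0.281).

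Distances reached far into gene deserts. Of the 1438 regions, 738 lay 50 to 100 kb from the nearest protein-coding gene model, 432 lay 100 to 200 kb, 223 lay 200 to 500 kb and 45 lay beyond 500 kb. The share present in all 16 lists was 22.1%, 23.1%, 16.1% and 17.8% in these bins. Most distal regions, 933, lay outside every gene model of any kind, 448 lay inside a lncRNA model and 212 were more than 50 kb from every model, noncoding ones included. Regions that held a promoter window were in all 16 lists in 41.7% of cases (40 of 96), against 19.9% (267 of 1342) of the other distal regions. Chromosome 13 had the highest share of its tested regions in the distal class, 12.7% (129 of 1018), and chromosome 11 the lowest, 2.77% (54 of 1951).

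The 10 distal regions with the highest lowest rank were strong in every library. The strongest lay 53 kb from Wnt7b, the gene of a secreted Wnt ligand, at the D130051D11Rik start (chr15:85634384-85635427). It averaged 99.7 ± 0.211 in AF9-experienced LPS, 98.7 ± 1.06 in AF9-experienced PBS, 99.6 ± 0.261 in naive LPS and 99.4 ± 0.254 in naive PBS libraries (SD, n = 5, 4, 3 and 4), so that it was near the top of all 16 lists. Regions 61 kb from Cd83, a surface protein of activated antigen-presenting cells, and 103 kb from Zfat, a zinc-finger gene, averaged 97.1 and 95.9 over the 16 libraries. A pair 53 and 76 kb from Chd2, a chromatin remodeller, averaged 93.3 and 93.6, and a region 589 kb downstream of F2rl3, a thrombin receptor gene, averaged 92.2. The others lay 141 kb upstream of Haao (mean 88.6), 282 kb downstream of Rps24 (83.8), 53 kb upstream of Pim1, a survival kinase gene (83.2), and 223 kb from Pcmtd1 (80.1). None of the 10 passed the test in any comparison. They were chosen for a high rank in every one of the same libraries. That choice leaves little room for a difference of the size called elsewhere, so nothing is read from this.

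Immunoglobulin loci added distal regions of another kind, because variable segments are not counted as protein-coding genes. The heavy chain locus on chromosome 12 held 22 distal regions, 20 of them on a gene segment, and the T cell receptor alpha and delta locus held 7. Between 8 and 18 of the 22 heavy chain regions had a peak in a library, 12 to 17 in AF9-experienced LPS, 12 to 17 in AF9-experienced PBS, 13 to 18 in naive LPS and 8 to 15 in naive PBS libraries, so the groups overlapped. The only 2 distal regions on miRNA models lay here, at Mir7094-1 and Mir7094-2, 922 and 966 kb downstream of Adam6a. Both loci encode the same 3p arm, and their 5p arms differ by 1 base within the seed, A5G counted from the 5′ end from the first locus to the second. The mature sequences (RefSeq, GRCm38.p6) are shown with the seed, bases 2 to 8, in capitals because this base change gives the 5p arms different seeds.
mmu-miR-7094-3p: uACUCUGCuguucucuccaca
mmu-miR-7094-1-5p: uCUGAAGAggauacagggucuga
mmu-miR-7094b-2-5p: uCUGGAGAggauacagggucuga

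The region at Mir7094-2 (chr12:114512907-114513849) was in all 16 lists and averaged 48.9 in AF9-experienced LPS, 44.7 in AF9-experienced PBS, 40.1 in naive LPS and 47.2 in naive PBS libraries. The region at Mir7094-1 (chr12:114468760-114469680) averaged 17.5, 40.6, 15.2 and 28.5 in the same groups. Neither passed the test after LPS (limma, adjusted p = 0.172 to 0.804 over both regions and both kinds of mice).

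LPS changed the ranks of distal regions in both kinds of mice. In AF9-experienced mice, 79 distal regions ranked higher after LPS (5.49%) and 36 ranked lower (2.50%), against 3.44% higher and 1.74% lower among all 23554 regions (limma, Benjamini-Hochberg adjusted p under 0.05). In naive mice, 46 ranked higher (3.20%) and 30 lower (2.09%), against 2% and 1.22% of all regions. These shares were close to those inside gene models, 5.48% and 2.46% in AF9-experienced and 3.07% and 1.75% in naive mice, and above those at gene ends, 0.96% and 0.80% in AF9-experienced and 0.64% and 0.40% in naive mice. The median difference of the called regions was 32.65 and -28.60 percentile points in AF9-experienced mice, and 37.54 and -36.58 in naive mice.

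Counts depended on rank, which differed between the classes. Of distal regions with a mean rank of 10 to 25, 15.6% (60 of 384) were called in AF9-experienced mice and 8.07% (31) in naive mice, and of those at 25 to 50, 10.9% (32 of 293) and 9.22% (27). The bins use the mean rank of the same libraries, so a mean under 10, where 563 distal regions stood, leaves little room for a difference of the size called elsewhere (1.60% and 1.07% called), and nothing is read from that bin. Gene-end regions at the same mean rank of 10 to 25 were called in 6.18% and 4.23% of cases, and intragenic ones in 17.8% and 8.76%.

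**Figure D2:**
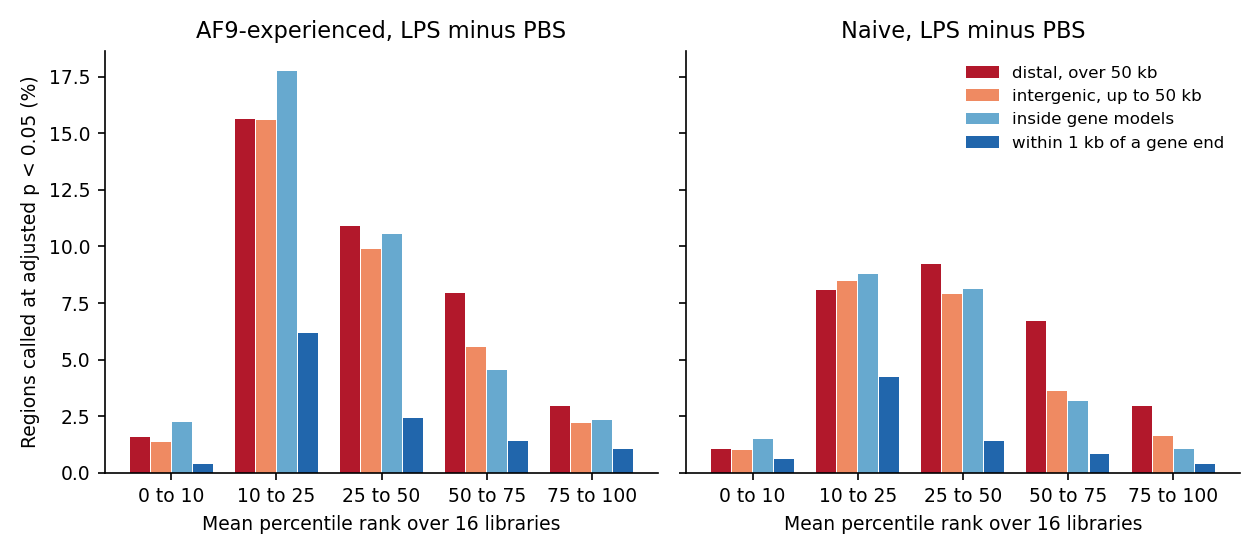
Bars give the share of regions (vertical axis, %) called between LPS and PBS at an adjusted p under 0.05, by mean percentile rank over 16 libraries (horizontal axis), in AF9-experienced and naive mice. In the bin of ranks 10 to 25, distal regions reach 15.6% in AF9-experienced and 8.07% in naive mice, and gene ends 6.18% and 4.23%.

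The counts were sensitive to how peaks were ranked and to single libraries. With peaks ranked by fold enrichment, 2252 distal regions were tested, and limma called 30 higher and 23 lower in AF9-experienced mice. In naive mice it called 0, while 192 higher and 245 lower had an unadjusted p under 0.05. Leaving out 1 library at a time gave 39 to 96 rises and 14 to 59 falls in AF9-experienced mice and 25 to 53 rises and 13 to 57 falls in naive mice, the most falls in both without naive PBS 1, and the naive groups fitted alone gave 10 and 9. Without the 3 shortest lists all counts were 103 and 86 in AF9-experienced and 79 and 54 in naive mice. Peaks on chromosome Y numbered 0 to 3 in LPS libraries and 0 to 1 in PBS libraries, and with that number as a covariate 105 and 22 regions were called in AF9-experienced and 28 and 3 in naive mice. The median fold enrichment of the shortened lists was 9.16 to 13.6 in LPS and 13.9 to 19.4 in PBS libraries outside the 3 shortest. Those 3 had 6.58 (naive LPS 3), 5.34 (AF9-experienced PBS 1) and 5.07 (naive PBS 1), so over all 16 libraries the treatments overlapped. With median fold enrichment as a covariate the counts were 85 and 57 in AF9-experienced and 61 and 42 in naive mice.

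The same regions tended to move in both kinds of mice. Of the 148 distal regions called in either, 43 were called in both, 72 in AF9-experienced mice alone and 33 in naive mice alone. All 46 regions called higher in naive mice also had a positive difference in AF9-experienced mice (median 32.51), and 29 of them were called there; of the 30 called lower, 30 had a negative one (median -22.69) and 14 were called. In the other direction, 78 of 79 and 36 of 36 regions called in AF9-experienced mice had the same sign in naive mice, with medians of 26.51 and -25.71. Over all called regions of the series this share was 97.0% to 99.0%.

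**Figure D3:**
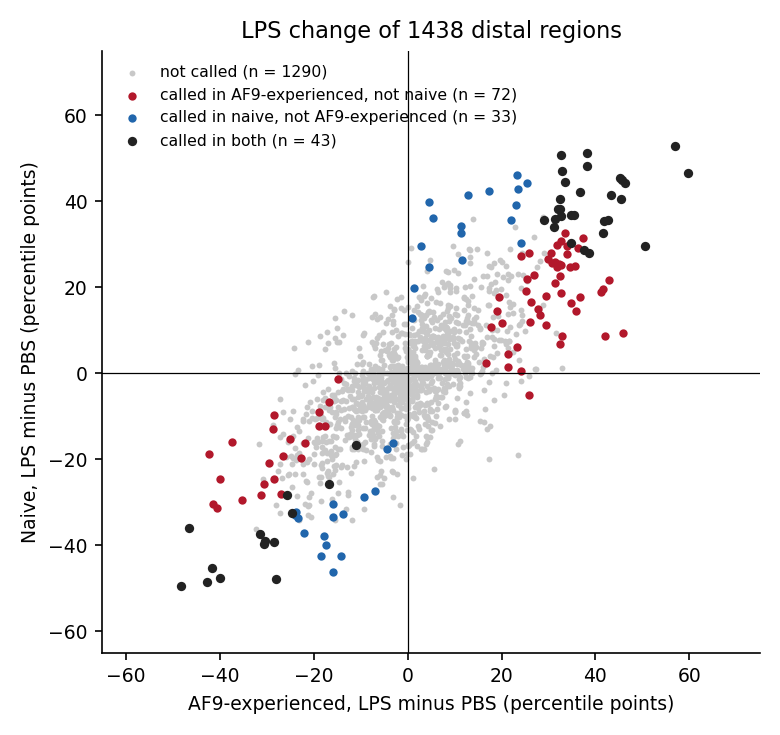
Each point is 1 of 1438 distal regions, with its LPS minus PBS difference in AF9-experienced mice on the horizontal axis and in naive mice on the vertical axis, both in percentile points. The 43 regions called in both (black) sit at the upper right and the lower left.

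Distal regions found in the shortened lists of 1 treatment alone had a peak in at least 5 of the 8 full lists of the other. All 8 shortened LPS lists and 0 of 8 PBS lists held a peak in 14 distal regions. In the full lists each of these 14 also had a peak in 5 to 7 of the 8 PBS libraries. A further 7 regions had a peak in all 8 shortened PBS lists and no LPS list, and in the full LPS lists 5 of these 7 had a peak in all 8 libraries. In all, LPS and PBS ranks did not overlap in 41 distal regions with LPS higher and in 31 with PBS higher. These counts were made for distal regions only. Without the share over all 23554 regions, they do not show whether distal regions differ from the rest. Presence in the full lists, tested in place of rank, gave 0 called distal regions in limma, with 1 to 3 per direction at an unadjusted p under 0.05. That test could hardly call any: 522 regions had a peak in all 16 full lists, which left 916 to test. Outside the 3 shortest lists, 98% or more of distal regions had a peak in each library, so nothing is read from this 0.

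**Figure D4:**
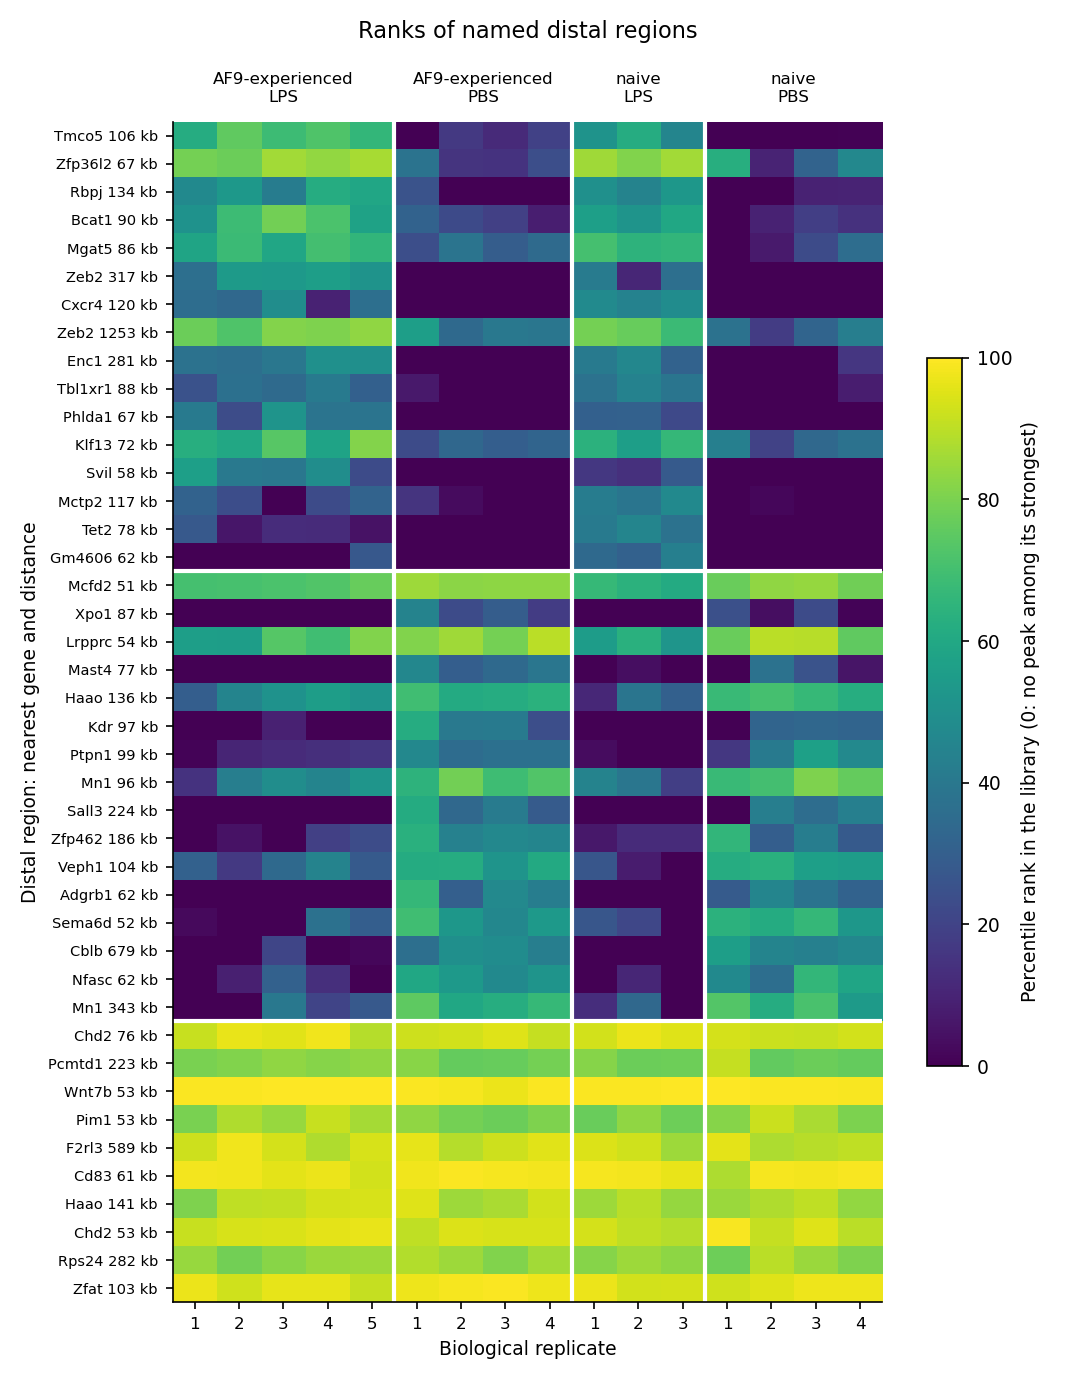
Colour gives the percentile rank (0 to 100; 0 means no peak among the strongest) of named distal regions (rows) in each library (columns, grouped by AF9-experienced LPS, AF9-experienced PBS, naive LPS and naive PBS). The upper 16 rows were called higher and the middle 16 lower after LPS. The lower 10 are the strongest distal regions, chosen for a high rank in all 16 libraries.

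Among the regions higher after LPS, that 106 kb downstream of Tmco5 and 122 kb from Spred1, a brake on RAS signalling, had the smallest p in both kinds of mice (chr2:116998715-116999377). Its ranks were 61.8, 75.4, 68.6, 72.5 and 66.1 in AF9-experienced LPS libraries, against 0, 16.6, 11.9 and 19.2 in AF9-experienced PBS libraries. They were 51.5, 61.9 and 45.7 in naive LPS libraries, against 0, 0, 0 and 0.738 in naive PBS libraries. All 8 LPS libraries stood above all 8 PBS libraries, by 56.95 points in AF9-experienced (SE 6.61; limma, adjusted p = 6.88e-05) and 52.86 in naive mice (SE 7.53; adjusted p = 0.000917).

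The region 134 kb upstream of Rbpj, the DNA-binding effector of Notch signalling (chr5:53420706-53421856), had ranks of 47.3, 53.1, 42.0, 62.1 and 59.3 in AF9-experienced LPS libraries, against 25.7, 0, 0 and 0 in AF9-experienced PBS libraries. In naive mice they were 50.2, 44.7 and 52.9 after LPS, against 0, 0, 9.72 and 10.1 after PBS. The groups did not overlap, and the 1 PBS value above 11 came from AF9-experienced PBS 1, a short list. The differences were 46.32 (adjusted p = 0.000635) and 44.30 (adjusted p = 0.00476). Near Bcat1, a branched-chain amino acid transaminase, a region 90.3 kb downstream averaged 65.5 in AF9-experienced LPS, 20.2 in AF9-experienced PBS, 56.0 in naive LPS and 10.6 in naive PBS libraries (adjusted p = 0.000577 and 0.00311). Klf13, a Kruppel-like factor, had a region 72 kb upstream that averaged 67.2, 29.6, 62.3 and 33.6 in the same order (adjusted p = 0.00103 and 0.0291).

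Of the regions found in LPS lists and in no shortened PBS list, 5 are described next. The region 120 kb upstream of Cxcr4, the chemokine receptor that holds HSPCs in the marrow (chr1:128712656-128713278), had ranks of 35.9, 33.7, 49.1, 9.57 and 36.5 in AF9-experienced LPS and 48.0, 44.3 and 48.7 in naive LPS libraries. It was at 0 in all 8 PBS libraries, so LPS and PBS did not overlap (differences 32.96, SE 7.17, adjusted p = 0.00809, and 46.96, SE 8.16, adjusted p = 0.00252). The region 145 kb downstream of Msrb3, a methionine sulfoxide reductase gene, at the 4930471E19Rik start printed above, averaged 35.4 in AF9-experienced LPS and 36.9 in naive LPS libraries and 0 in PBS libraries (adjusted p = 0.00927 and 0.0233). Regions 68 kb downstream of Epha4, an ephrin receptor gene (34.8 and 36.9 in AF9-experienced and naive LPS libraries; adjusted p = 0.00361 and 0.00883), and 67 kb from Phlda1 (38.6 and 27.9; adjusted p = 0.00104 and 0.0391) followed the same pattern. The region 55 kb downstream of Fos, an AP-1 subunit induced by many stimuli, varied more, at 4.25, 12.7, 51.9, 56.2 and 44.8 in AF9-experienced LPS and 15.1, 29.2 and 38.6 in naive LPS libraries, and passed the test in AF9-experienced mice (33.99, adjusted p = 0.0317) but not in naive mice (27.63, adjusted p = 0.170).

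Upstream of Zeb2, a zinc-finger transcription factor of haematopoietic differentiation, 3 of 4 distal regions in the 3697 kb between Zeb2 and Acvr2a ranked higher after LPS in both kinds of mice. The region at 317 kb (chr2:45434030-45434973), which holds the Gm30728 start printed above, had ranks of 36.5, 54.6, 54.2, 55.9 and 51.5 in AF9-experienced LPS and 41.7, 10.6 and 36.5 in naive LPS libraries, and was at 0 in all 8 PBS libraries. Its differences were 50.55 (SE 7.22, adjusted p = 0.000227) and 29.61 (SE 8.22, adjusted p = 0.0493). The region at 1253 kb (chr2:46370814-46371556), the second farthest of all distal regions from a protein-coding gene, was in all 16 lists, at 77.5, 72.4, 81.5, 80.8 and 83.5 in AF9-experienced LPS, 56.0, 34.3, 39.9 and 39.3 in AF9-experienced PBS, 79.2, 76.8 and 68.2 in naive LPS and 37.6, 17.7, 32.2 and 42.7 in naive PBS libraries. Every LPS value lay above every PBS value (36.80, adjusted p = 0.000407, and 42.21, adjusted p = 0.00118). At 162 kb (chr2:45279352-45280284), LPS ranks were 33.0 to 58.7 in AF9-experienced and 45.9 to 63.7 in naive mice, and the 3 PBS libraries above 0 were AF9-experienced PBS 1 (28.7), naive PBS 1 (29.1) and naive PBS 4 (5.23). The region at 54 kb, the weakest, averaged 16.9 in AF9-experienced LPS and 22.7 in naive LPS libraries and 0 in PBS libraries, and did not pass (adjusted p = 0.202 and 0.158).

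The interval between Haao, an enzyme of tryptophan breakdown, and Zfp36l2, which binds and destabilises AU-rich mRNAs, held 20 distal regions in 335 kb, and 7 of them were called. Regions there moved in opposite directions. The region 67 kb from Zfp36l2 (chr17:84116135-84117099) had ranks of 79.2, 77.7, 86.1, 83.9 and 86.7 in AF9-experienced LPS libraries, against 37.9, 15.1, 14.6 and 24.1 in AF9-experienced PBS libraries. In naive mice it was at 85.7, 81.2 and 86.2 after LPS, against 62.7, 9.97, 31.7 and 46.8 after PBS. All LPS values exceeded all PBS values, with differences of 59.77 (SE 7.51, adjusted p = 9.43e-05) and 46.60 (SE 8.55, adjusted p = 0.00371). The region 136 kb upstream of Haao (chr17:83985094-83985884) went the other way, at 29.7, 45.1, 50.8, 55.7 and 51.8 in AF9-experienced LPS, 69.3, 61.3, 61.8 and 64.0 in AF9-experienced PBS, 11.3, 38.7 and 30.7 in naive LPS and 68.0, 70.4, 66.8 and 62.4 in naive PBS libraries. It passed in naive mice (-40.00, adjusted p = 0.00273) and not in AF9-experienced mice (-17.43, adjusted p = 0.109), although LPS and PBS values did not overlap in either.

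Between these, the region 141 kb from Haao stayed high in every library (means 89.9 in AF9-experienced LPS, 90.3 in AF9-experienced PBS, 86.5 in naive LPS and 86.8 in naive PBS). The other called regions of the interval lay 60 kb from Haao (higher in AF9-experienced mice, 32.97, adjusted p = 0.0018) and 158 kb from Haao (higher in AF9-experienced mice, 34.54, adjusted p = 0.0317). In naive mice the region 155 kb from Haao (-33.05, adjusted p = 0.0289) and that 140 kb from Zfp36l2 (-27.40, adjusted p = 0.034) ranked lower, and that 122 kb from Zfp36l2 ranked higher (39.82, adjusted p = 0.0382). The regions 155 and 158 kb from Haao, next to each other, thus had differences of opposite sign in both kinds of mice (-24.06 and 34.54 in AF9-experienced, -33.05 and 24.77 in naive mice).

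**Figure D5:**
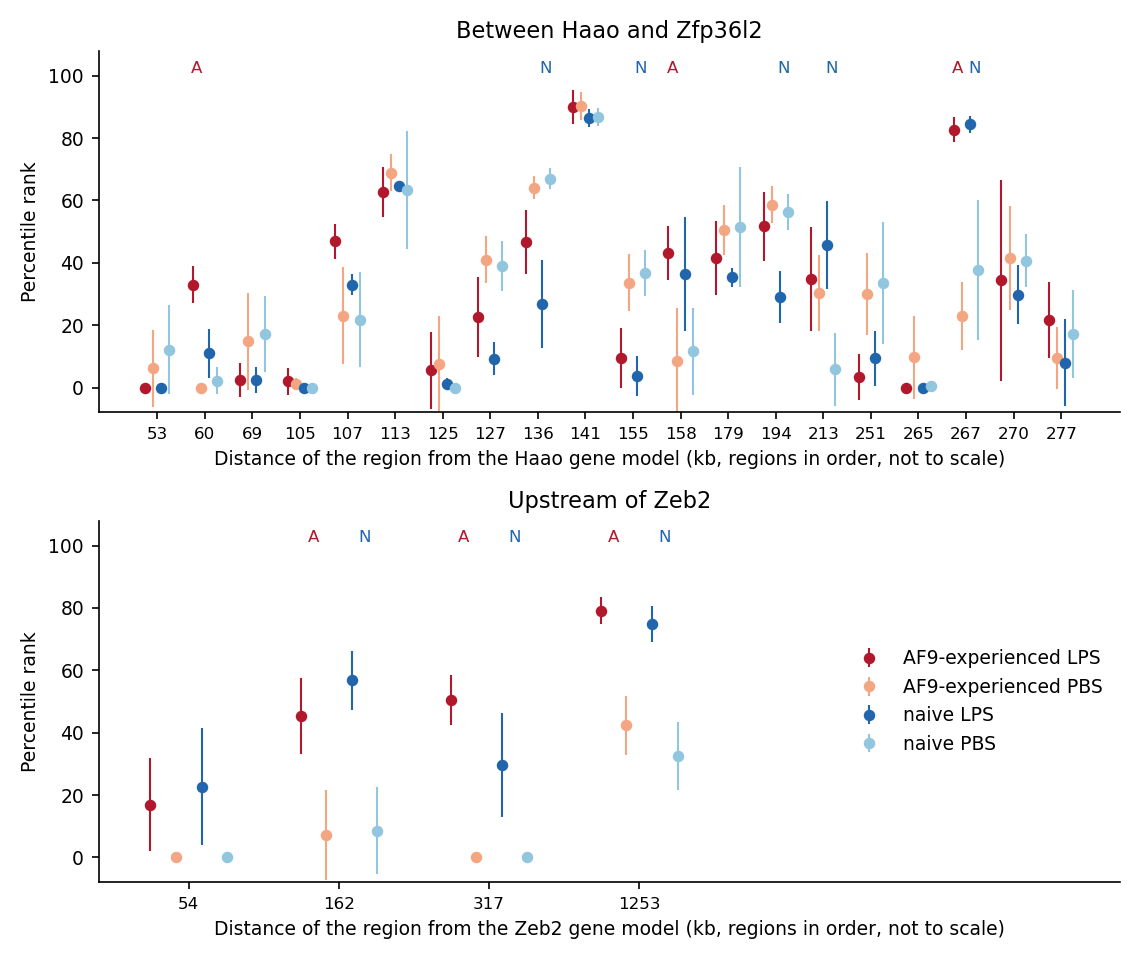
Points are group means and bars the SD of percentile ranks (vertical axis) for distal regions between Haao and Zfp36l2 and upstream of Zeb2, in order of distance (horizontal axis, kb, not to scale), with A and N marking regions called between LPS and PBS in AF9-experienced and naive mice. The 3 called Zeb2 regions are higher after LPS, whereas called regions of the upper panel go in both directions.

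Across the genome, the 1438 distal regions fell into 667 intervals between neighbouring protein-coding genes, 357 of them with a single region. A called region was present in 121 intervals, and 20 held 2 or more. With gaps of at most 25 kb as the limit, 564 regions (39.2%) stood in 218 clusters, the rest alone, and the largest clusters held 12 regions (Haao to Zfp36l2), 8 (beside Id2) and 7 (beside Cebpb).

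The lists of genes that follow are read against all distal regions, of which 7.997% were called in AF9-experienced and 5.29% in naive mice (median differences 0 and -1.04), and all regions, with 5.18% and 3.22%. Among factors of stem cell identity, 37 distal regions were flanked by 11 of 30 listed genes, and 3 ranked higher and 1 lower in AF9-experienced mice (10.8%), 1 and 0 in naive mice (2.70%), with median differences of 2.99 and 1.36. Upstream of Runx1, the master regulator of definitive haematopoiesis, the region at 322 kb (chr16:93147574-93148174) had ranks of 23.6, 23.5, 20.2, 47.9 and 47.1 in AF9-experienced LPS and 36.7, 39.6 and 45.4 in naive LPS libraries and was at 0 in all 8 PBS libraries. It passed in both (32.44, SE 7.03, adjusted p = 0.008, and 40.57, SE 8.01, adjusted p = 0.0062). A neighbour at 327 kb passed in AF9-experienced mice (26.91, adjusted p = 0.049) and not in naive mice (22.78, adjusted p = 0.194), and the region at 58 kb, the strongest of 7 upstream of Runx1, averaged 62.8 in AF9-experienced LPS, 48.8 in AF9-experienced PBS, 64.0 in naive LPS and 42.0 in naive PBS libraries without passing (adjusted p = 0.198 and 0.0866).

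Between Kit, the stem cell factor receptor, and Kdr, a VEGF receptor of endothelium, 1 of 6 distal regions was called. It lay 97 kb downstream of Kdr and 178 kb from Kit (chr5:75835188-75836135), with ranks of 0, 0, 9.25, 0 and 0 in AF9-experienced LPS libraries, against 61.8, 40.4, 40.8 and 24.1 in AF9-experienced PBS libraries. In naive mice it was at 0 in 3 of 3 LPS libraries, against 0, 32.4, 33.6 and 32.2 in PBS libraries, the 0 being the shortest list, naive PBS 1. The difference passed in AF9-experienced mice (-39.92, SE 8.07, adjusted p = 0.00497) and not in naive mice (-24.53, SE 9.19, adjusted p = 0.168). The region 74 kb downstream of Kit was in all 16 lists, averaged 70.7 in AF9-experienced LPS, 76.0 in AF9-experienced PBS, 64.9 in naive LPS and 74.2 in naive PBS libraries, and did not pass. In the long interval between Myc, a driver of growth and proliferation, and Gsdmc, a region 1657 kb from Myc averaged 83.0 over the libraries without a called change, and a region 1714 kb from Myc ranked higher in AF9-experienced mice (31.80, adjusted p = 0.0405; naive 29.85, adjusted p = 0.123).

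Lymphoid priming genes flanked 57 distal regions, of which 4 ranked higher and 3 lower in AF9-experienced mice (12.3%, against 7.997% of all distal regions) and 1 and 1 in naive mice (3.51%, against 5.29%), with median differences of -2.02 and -4.38. The only distal region beside Satb1, a chromatin organiser of lymphoid cells, lay 335 kb upstream (chr17:52168103-52168842) and had ranks of 23.2, 35.6, 42.6, 15.4 and 51.6 in AF9-experienced LPS libraries, against 0.230, 0, 0 and 0 in AF9-experienced PBS libraries. Naive libraries had 55.2, 52.6 and 36.5 after LPS, against 8.58, 0, 0 and 6.31 after PBS. The groups did not overlap (33.60, adjusted p = 0.0108, and 44.38, adjusted p = 0.0058). Upstream of Id2, an inhibitor of E proteins, the region at 68 kb was at 0 in all 5 AF9-experienced LPS libraries, against 54.5, 17.3, 21.0 and 20.9 in AF9-experienced PBS libraries (-28.43, adjusted p = 0.0177), and the region at 342 kb ranked higher (21.47, adjusted p = 0.0178), neither passing in naive mice (adjusted p = 0.603 and 0.798). Between Prl5a1 and Sox4, a factor of early B lymphoid cells, 2 of 10 distal regions were called. The region 247 kb from Sox4 ranked higher in AF9-experienced mice (20.02, adjusted p = 0.0479; naive 11.71, adjusted p = 0.414), and that 435 kb from Sox4 averaged 39.3 in AF9-experienced LPS and 66.2 in AF9-experienced PBS libraries (-26.93, adjusted p = 0.0235), and 32.3 in naive LPS and 60.4 in naive PBS libraries (-28.12, adjusted p = 0.0501).

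Granulocyte and monocyte factors flanked 28 regions, with 4 higher and 1 lower in AF9-experienced mice (17.9%, against 7.997% of all distal regions) and 3 and 1 in naive mice (14.3%, against 5.29%), and median differences of -5.98 and -4.79. The 3 higher in both are the Zeb2 regions. Beside Cebpb, a factor of stress granulopoiesis, 12 regions lay between Cebpb and Ptpn1, a tyrosine phosphatase gene. The region 69 kb from Cebpb ranked higher in AF9-experienced mice (33.51, adjusted p = 0.0289), at 54.1 ± 10.6 after LPS and 20.6 ± 18.96 after PBS. In naive mice it stood at 62.2 ± 9.06 after LPS and 29.5 ± 15.3 after PBS and did not pass (32.72, adjusted p = 0.0809). The region 99 kb upstream of Ptpn1 ranked lower in both, at 10.5 in AF9-experienced LPS, 38.9 in AF9-experienced PBS, 1.12 in naive LPS and 40.4 in naive PBS libraries (adjusted p = 0.0336 and 0.0139).

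NF-kB and inflammatory genes flanked 21 regions, with 2 higher and 0 lower in AF9-experienced mice (9.52%, near the 7.997% of all distal regions) and 2 and 1 in naive mice (14.3%, against 5.29%), and median differences of 3.82 and 6.71. The 2 that ranked higher lay between Zpld1 and Nfkbiz, which encodes the LPS-inducible inhibitor-like protein IkappaB-zeta. The region 56 kb from Nfkbiz (chr16:55754131-55755028) had ranks of 45.6, 43.4, 54.4, 52.2 and 64.1 in AF9-experienced LPS libraries, against 0, 30.3, 27.4 and 33.6 in AF9-experienced PBS libraries. It had 60.0, 54.0 and 46.5 in naive LPS libraries, against 0, 31.6, 25.2 and 14.6 in naive PBS libraries. LPS and PBS values did not overlap, and the 2 zeros were the short PBS lists (29.11, SE 8.16, adjusted p = 0.0397, and 35.65, SE 9.29, adjusted p = 0.0359). The region 255 kb from Nfkbiz averaged 62.6 in AF9-experienced LPS, 21.1 in AF9-experienced PBS, 46.7 in naive LPS and 14.1 in naive PBS libraries (adjusted p = 0.0023 and 0.0396). The list's called fall lay between Lpp and Bcl6, a transcriptional repressor of germinal centre B cells, in naive mice (-32.36, adjusted p = 0.0414; AF9-experienced -23.70, adjusted p = 0.0756).

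AP-1 and immediate early genes flanked 54 regions, with 5 higher and 1 lower in AF9-experienced mice (11.1%, against 7.997% of all distal regions) and 3 and 4 in naive mice (13.0%, against 5.29%), and median differences of -1.25 and -2.55. This list includes Zfp36l2, whose interval, described above, held 20 of the 54 regions. That interval alone had 3 higher and 0 lower in AF9-experienced mice, and 2 higher and 3 lower in naive mice. A large part of the list's calls thus came from 1 interval. Zfp36l1, a relative, had a region at 61 kb (34.87, adjusted p = 0.00681, and 30.34, adjusted p = 0.049). Genes of the MLL-AF9 program flanked 37 regions, with 5 and 1 in AF9-experienced (16.2%) and 3 and 0 in naive mice (8.11%), and median differences of 3.94 and 4.40, again counting the Zeb2 regions and the 68 kb Id2 region. Endothelial and stromal markers flanked 11 regions (0 higher and 1 lower in AF9-experienced mice, the Kdr region, and 0 and 0 in naive mice), and non-haematopoietic developmental factors 16 (0 and 1 in each). The 3 lists of megakaryocyte, erythroid and mast factors, interferon-stimulated genes and mature lymphocyte markers flanked 0 distal regions, with 20, 32 and 13 of their genes on autosomal models.

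The region 78 kb upstream of Tet2, a DNA demethylase often mutated in clonal haematopoiesis (chr3:133622980-133623850), had ranks of 28.1, 6.18, 12.8, 12.3 and 4.91 in AF9-experienced LPS libraries and 41.2, 45.6 and 37.7 in naive LPS libraries, and was at 0 in all 8 PBS libraries. It passed in naive mice (41.49, SE 6.63, adjusted p = 0.00159) and not in AF9-experienced mice (12.86, SE 5.82, adjusted p = 0.225). All 3 naive LPS values exceeded all 5 AF9-experienced LPS values, but the test of the difference between both LPS changes did not pass (-28.62, p = 0.00371, adjusted p = 0.9998, limma).

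Regions that ranked lower after LPS included a pair at Mn1, a transcriptional coactivator gene that is rearranged in myeloid leukaemia. The region 343 kb from Mn1 (chr5:111799669-111800766) had ranks of 0, 0, 40.1, 20.6 and 28.1 in AF9-experienced LPS libraries, against 75.4, 59.7, 62.3 and 67.03 in AF9-experienced PBS libraries. In naive mice it had 13.1, 33.9 and 0 after LPS, against 73.3, 61.8, 71.3 and 54.5 after PBS. The groups did not overlap (-48.36, SE 8.61, adjusted p = 0.00177, and -49.56, SE 9.80, adjusted p = 0.0062). The region at 96 kb stood at 40.7 ± 15.1 in AF9-experienced LPS and 71.4 ± 5.96 in AF9-experienced PBS libraries, and at 34.1 ± 13.8 in naive LPS and 73.7 ± 5.88 in naive PBS libraries (adjusted p = 0.0107 and 0.00665). The region at 52 kb, chosen for comparison after its values were seen, did not pass the test (means 73.7 in AF9-experienced LPS, 70.5 in AF9-experienced PBS, 72.5 in naive LPS and 74.5 in naive PBS; adjusted p = 0.776 and 0.922).

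The region 679 kb upstream of Cblb, a ubiquitin ligase that restrains immune signalling (chr16:51351963-51352527), was at 0, 0, 21.0, 0 and 1.66 in AF9-experienced LPS libraries, against 36.5, 49.6, 48.7 and 42.8 in AF9-experienced PBS libraries. It was at 0 in all 3 naive LPS libraries, against 56.0, 44.9, 43.6 and 46.3 in naive PBS libraries. Values of LPS and PBS did not overlap (-39.87, SE 6.91, adjusted p = 0.00143, and -47.70, SE 7.87, adjusted p = 0.00174). The region 62 kb upstream of Nfasc, a neuronal adhesion gene, averaged 10.6 in AF9-experienced LPS, 53.3 in AF9-experienced PBS, 3.65 in naive LPS and 52.1 in naive PBS libraries (adjusted p = 0.00263 and 0.00421). The region 62 kb from Adgrb1, an adhesion receptor gene, was at 0 in all 8 LPS libraries and averaged 46.6 in AF9-experienced PBS and 35.9 in naive PBS libraries (adjusted p = 0.000503 and 0.0167). Further falls in both kinds of mice were at Sema6d (52 kb; -41.66 and -45.23) and Veph1 (104 kb; -28.11 and -47.83).

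No distal region passed the test between AF9-experienced and naive mice. After PBS, limma called 0 of 1438 regions, with 53 at an unadjusted p under 0.05, and 0 (0%) of all regions. After LPS it called 0 distal regions, with 106 at an unadjusted p under 0.05, while 3 of all 23554 regions, 0.0127%, were called. The interaction, the LPS change in AF9-experienced minus that in naive mice, gave 0 distal calls (65 at an unadjusted p under 0.05) and 0 (0%) over all regions. The smallest p after LPS belonged to the region 62 kb from Gm4606, at 0, 0, 0, 0 and 27.4 in AF9-experienced LPS and 34.0, 31.2 and 43.1 in naive LPS libraries (-30.64, p = 5.97e-05, adjusted p = 0.227), and at 0 in all 8 PBS libraries. It passed once AF9-experienced LPS 5, its 1 AF9-experienced library above 0, was left out, which follows from the choice of that library. On the other side, the region 53 kb downstream of Slc17a6, a vesicular glutamate transporter gene, ranked 35.8, 47.8, 59.4, 48.5 and 52.7 in AF9-experienced LPS and 26.6, 9.87 and 6.30 in naive LPS libraries (34.59, p = 0.000534, adjusted p = 0.419).

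The overall share of distal peaks also did not differ detectably. Distal regions made up 5.24% ± 0.502 of the strongest peaks in AF9-experienced LPS, 5.26% ± 0.192 in AF9-experienced PBS, 5.00% ± 0.387 in naive LPS and 5.26% ± 0.147 in naive PBS libraries (SD, n = 5, 4, 3 and 4). The differences in percentage points were -0.0215 for LPS in AF9-experienced mice (exact two-sided permutation p = 0.952), -0.257 for LPS in naive mice (p = 0.286), 0 for AF9-experienced against naive after PBS (p = 1) and 0.236 after LPS (p = 0.5), all with an adjusted p of 1 over these 4 exact permutation tests. The number of distal regions with a peak was 853 to 1015 in AF9-experienced LPS, 796 to 1013 in AF9-experienced PBS, 778 to 952 in naive LPS and 667 to 995 in naive PBS libraries. Lists shared more distal regions within a treatment than between treatments. The mean Jaccard index was 0.693 within and 0.576 between in AF9-experienced mice, and 0.638 and 0.540 in naive mice. Intragenic regions had 0.733 and 0.635 in AF9-experienced mice and 0.685 and 0.604 in naive mice. Other intergenic regions had 0.708 and 0.619 in AF9-experienced mice and 0.665 and 0.585 in naive mice. Gene ends had 0.911 and 0.898 in AF9-experienced mice. Higher sharing within a treatment was thus not particular to distal regions. These indices are descriptions, since pairs share libraries.

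Full lists held 19448 to 88816 peaks, and the shortest belonged to naive LPS 3 (39464), AF9-experienced PBS 1 (25685) and naive PBS 1 (19448). More than 98% of the 1438 distal regions had a peak in the full list of the other 13 libraries, against 80.3%, 64.0% and 46.4% in those 3. Of the HSPC markers, Kit, Cd34, Flt3, Meis1 and Myb had a gene-end peak in 16 of 16 full lists and Gata2 in 14. Of the defining markers of other cells, Ms4a1 (B cells), Cd8a and Ncr1 (T and NK cells), Hba-a1 (erythroid cells) and Cdh5 (endothelium) had one in 0 lists, Ly6g (neutrophils) in 1 and Cd3g in 2, whereas Kdr, Col1a1, Epor and Klf1 had one in all 16. An open gene end does not show that a gene is expressed, and the part of other cells in the results was not tested. The number of replicates was 3 to 5 per group, and the depth of the libraries cannot be read from peak lists.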

How the data were processed

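ATAC-seq had been done on sorted HSPCs of 16 biological replicates, each labelled as 2 technical libraries (32 labels) and each with 1 deposited peak list. Per the submitters' processing notes the authors used FastQC, Trim Galore, BWA, Picard and MACS3 with GRCm38, without stated versions; the labels name both Omni-ATAC and Chromium GEM V3, and how technical libraries were combined is not given in the sources used here. The deposited lists give each peak's fold enrichment over background and its -log10 p and -log10 q, which are the authors' values. Lists hold no counts, so depth is unknown and no counting interval can be given.

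The 19100 strongest autosomal peaks of each list, by -log10 p, were ranked as percentiles and merged over lists by any overlap. The fit took in regions found in 3 or more lists, and those over 50 kb from each of 20661 autosomal protein-coding gene models of RefSeq were called distal. Differences of ranks were fitted with limma 3.58.1 (R 4.3.3) on all 4 groups, with Benjamini-Hochberg adjustment over all 23554 regions and a threshold of 0.05. Single library measures were compared by exact permutation tests. Tables were made with Python 3.11.15, pandas 2.3.3, numpy 2.4.6 and scipy 1.17.1, and figures with matplotlib 3.10.9. P-values measure the spread between samples labelled as biological replicates.

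The regions and gene lists were chosen with earlier results of these data known. Named regions were the 10 called with the smallest p in each direction of each LPS comparison, 3 by smallest p in comparisons without calls, the 10 with the highest lowest rank, the 5 farthest from genes, the 5 largest clusters, those in every list of 1 treatment and none of the other, those on miRNA models, up to 4 called per gene list and the strongest beside each of 16 haematopoietic genes. Further regions of the same intervals, and the windows printed, were chosen after their values were seen. A list's region is one whose left or right protein-coding neighbour is a listed gene, so 1 region can count under several lists. Alternatives changed the ranking value, the number of peaks, the overlap, the distance, the minimum of lists, the covariates and the libraries used.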

Additional observations from a re-analysis of the deposited data

Results flagged for a closer look

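Dixon's criterion was applied to 90 groups of 4 or 5 libraries, over 28 named regions and the library measures. By it, 17 single values stood far from the rest of their group. Chance alone meets the criterion in about 1 in 20 groups only where values are normally distributed. Libraries without a peak among the strongest all share the lowest rank, so a lone rank above them meets it whatever its size. That rate therefore does not apply to the ranks, and the number 17 is not compared with it. AF9-experienced PBS 1 had 25685 peaks in its full list, against 84229 to 88816 in the other 3 libraries of its group, a median fold enrichment of 5.34, against 18.5 to 19.4, and a median distal peak width of 378 bp, against 649 to 682 bp.

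The same library had the highest rank of its group at the region 327 kb from Runx1 (17.9), 335 kb from Satb1 (0.230), 162 kb from Zeb2 (28.7) and 134 kb from Rbpj (25.7), the others being at 0. Naive PBS 1, the shortest list, had the highest rank of its group at the region 327 kb from Runx1 (27.9) and 60 kb from Haao (8.94), and the lowest at 233 kb from Zpld1 (0, others 17.7 to 20.8) and 97 kb from Kdr (0, others 32.2 to 33.6). AF9-experienced LPS 3 was highest at 679 kb from Cblb (21.0) and 97 kb from Kdr (9.25). AF9-experienced LPS 1 was lowest at 141 kb from Haao (80.6, others 90.3 to 94.1), 317 kb from Zeb2 (36.5, others 51.5 to 55.9) and 96 kb from Mn1 (14.5, others 42.7 to 52.1). Naive PBS 4 was highest at 106 kb from Tmco5 (0.738, others 0). The part of list length in these values was not tested.

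Chromosome Y, which enters no comparison, held 3 peaks in AF9-experienced LPS 1, 2 in AF9-experienced LPS 2 and 2 in each of naive LPS 1, 2 and 3, against at most 1 in any PBS library.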

How the results depend on the processing

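Counts of called distal regions are given below as AF9-experienced higher and lower, then naive higher and lower, against 79, 36, 46 and 30 of 1438 as reported. The number of distal regions tested changed with some settings. Counts were 30, 23, 0 and 0 of 2252 with ranking by fold enrichment, and 13, 7, 4 and 4 of 371 with 0.5 times as many peaks. For presence they were 0, 0, 0 and 0, of 916 regions in the full lists and of 1150 at a -log10 q of 5. They were 103, 86, 79 and 54 without the 3 shortest lists, 105, 22, 28 and 3 with the number of Y peaks as a covariate, 85, 57, 61 and 42 with median fold enrichment as one, and 72, 38, 10 and 9 with each pair of groups fitted alone. Fewer regions were also tested over 100 kb (43, 14, 21 and 17 of 700) and over 50 kb from every gene model (13, 4, 7 and 0 of 212). In that last setting 18 naive falls had an unadjusted p under 0.05 in limma. A 50% overlap gave the same counts as reported, and a minimum of 5 lists gave 86, 37, 46 and 32 of 1179. With the replicate number as a block the counts were 56, 32, 36 and 17. Of 14 same-numbered pairs, 2 correlated above 0.1 (range -0.313 to 0.175), both between PBS libraries, and 3 correlated best with their own number. With 3 or 4 numbers per comparison, these values cannot tell whether the numbers pair the samples or mark a batch. The cause of the shifts in counts was not tested.

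Leaving out 1 library gave 39 to 96, 14 to 59, 25 to 53 and 13 to 57. AF9-experienced rises came to 48, 42 and 39 without AF9-experienced PBS 2, 3 and 4, and falls to 21, 23 and 22 without AF9-experienced LPS 1, 2 and 4, 14 without AF9-experienced PBS 4 and 59 without naive PBS 1. Naive rises came to 25 without naive LPS 2 and to 29 and 28 without naive PBS 2 and 3, and naive falls to 15, 13 and 14 without naive LPS 1, 2 and 3 and to 57, 18 and 14 without naive PBS 1, 2 and 3. AF9-experienced against naive after LPS gave 0 to 1, with 1 call without AF9-experienced LPS 5 or naive LPS 1, and the other AF9 comparisons gave 0 throughout.

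Ranking by fold enrichment turned the rank difference of distal minus intragenic peaks to 0.836 and of distal minus other intergenic peaks to 1.80, and the LPS difference in AF9-experienced mice to 1.70 at 51 kb from Mcfd2 and 0.495 at 104 kb from Veph1. Of 2394 values of 93 called results for named regions under the alternatives, 1869 kept direction and side of the threshold, 523 kept direction alone and 2 changed sign. The interaction could not be fitted for groups alone.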
